A study of Homo sapiens with 12 samples.

Results

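The HOX genes of U2OS cells, together with the noncoding RNAs transcribed from the same 4 clusters, were examined in RNA sequencing libraries of cells with raised or normal eIF4E. The members were chosen by name from the 58684 genes of the deposited table: the HOX genes of clusters A to D, the antisense RNAs named after them, and HOTAIR, HOTAIRM1 and HOTTIP. This gave 55 rows, namely 39 HOX genes and 16 noncoding RNAs. By cluster they numbered 17 in HOXA, 14 in HOXB, 14 in HOXC (with HOTAIR) and 10 in HOXD.

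U2OS is an established human osteosarcoma line. The cells stably carried eIF4E-Flag, a tagged form of the cap-binding protein that starts translation, or the vector alone. From each kind of cell, total RNA (input) and RNA recovered by an immunoprecipitation of the cap (Cap IP) were sequenced, which gave 4 groups of 3 libraries: eIF4E input, vector input, eIF4E Cap IP and vector Cap IP. Whether replicates were grown apart, and whether each stable line is a clone, is not in the labels. A p-value here therefore reflects the spread of these libraries alone. The series title asks whether eIF4E changes how much of coding and noncoding transcripts carries an m7G cap.

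HOX genes encode homeodomain transcription factors that give cells their position along the body axis. In mammals they lie in 4 clusters, and a gene's place in its cluster follows where and when it is used in the embryo. Adult and tumour cells keep part of this pattern. The clusters also give rise to long noncoding RNAs. HOTAIR, from between HOXC11 and HOXC12, has been described as a partner of the Polycomb repressor PRC2, HOTTIP lies beside HOXA13, and HOTAIRM1 near the other end of the HOXA cluster.

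The libraries held 1206321 to 1813486 counts. Levels are given as CPM, counts relative to library size, scaled with TMM factors, edgeR's correction for differences in RNA composition. In CPM, 3 counts, the limit that a count of 0 allows, were 1.19 to 3.15 depending on the library (counting error only). EIF4E itself, with 267 counts in all, lay between 11.9 and 15.4 CPM in eIF4E input and between 4.81 and 9.70 CPM in vector input. Of 9 osteoblast and osteosarcoma markers, 7 held at least 10 counts, among them the bone transcription factor RUNX2. IBSP held none, and COL1A2 held 2 counts, all in vector input. The summed osteoblast markers lay between 799 and 1076 CPM in eIF4E input and between 979 and 1427 CPM in vector input. In Cap IP they lay between 270.4 and 412 CPM in eIF4E cells and between 403 and 894 CPM in vector cells. Blood markers summed to at most 8.92 CPM in any library, with HBB at 0. The 5 epithelial markers, each with counts in every group, summed to between 24.9 and 44.1 CPM in eIF4E input. In vector input they summed to between 16.2 and 21.1 CPM, which did not overlap. The gap was widest in KRT15, with means of 15.9 CPM in eIF4E input and 0.92 CPM in vector input. KRT5 went the other way, at 3.68 and 6.52 CPM, while EPCAM, CDH1 and KRT14 were higher in eIF4E input by less. In Cap IP the 5 markers summed to between 40.7 and 51.2 CPM in eIF4E cells and between 36.4 and 43.1 CPM in vector cells. The 3 endothelial markers summed to between 15.4 and 44.4 CPM in eIF4E Cap IP and between 7.78 and 12.8 CPM in vector Cap IP, which did not overlap. These sums came almost wholly from PECAM1, with 89 counts in eIF4E and 33 in vector Cap IP. CDH5 held 2 and 4 counts there, and VWF 0 in both. In input the 3 markers summed to between 6.33 and 25.96 CPM in eIF4E cells and between 8.55 and 10.5 CPM in vector cells. The 5 neuronal markers summed to between 25.3 and 83.6 CPM over all libraries, with ELAVL4 at 1 count in eIF4E input and 0 in the other groups. The part of cell makeup in the results below was not tested.

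The HOX rows were weakly represented, and most of their counts lay in noncoding rows. They held 16022 counts over the 12 libraries, or 0.0734 to 0.106% of a library. Of these, 11941 lay in the 16 noncoding rows and 4081 in the 39 HOX genes. The share of noncoding rows was between 64.7% and 80.3% in each library. HOXA held 7364 counts, HOXB 4574, HOXC 3551 and HOXD 533. Of the 55 rows, 26 had enough counts to be tested, 12 HOX genes and 14 noncoding RNAs. They numbered 7 in HOXA, 8 in HOXB, 9 in HOXC and 2 in HOXD. The other 29 held 0 to 99 counts each, with a median of 11, and HOXB1 and HOXD4 held none.

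Most of the HOX genes that could be tested came from the middle and the posterior side of the clusters. The 12 were HOXA9, HOXA10, HOXA11, HOXB3, HOXB6, HOXB7, HOXB9, HOXC6, HOXC9, HOXC11, HOXC13 and HOXD8. None came from paralogue groups 1, 2, 4, 5 or 12. HOXB7 and HOXA11 held the most counts of any HOX gene, 545 and 430. HOXA11, on chromosome 7 at 27181157 to 27185232, acts in the limbs and the uterus in development. Of the 3 noncoding RNAs best known by their own names, HOTAIR held 278 counts, HOTAIRM1 10 and HOTTIP 1, so HOTAIRM1 and HOTTIP were not detectable as changed or unchanged at this depth.

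Per kilobase of exon, rows annotated as antisense RNAs of HOXA and HOXB stood highest in input. How the counting used strand is not known, so the RNA behind these rows is uncertain. HOXB-AS4 averaged 79.8 ± 25.5 CPM per kb in eIF4E input and 74.3 ± 16.03 CPM per kb in vector input (SD, n = 3 each). HOXA10-AS averaged 46.2 ± 14.1 CPM per kb in eIF4E input and 63.3 ± 4.70 CPM per kb in vector input. HOXB-AS3 averaged 57.6 ± 17.2 CPM per kb in eIF4E input and 44.5 ± 9.75 CPM per kb in vector input. In eIF4E input these 3 neighbours in the order lay within about 1 SD of the next. HOXB7, which encodes a homeodomain factor of the trunk, was the highest of the HOX genes, with 18.4 ± 5.88 CPM per kb in eIF4E input and 12.2 ± 1.76 CPM per kb in vector input. In vector input HOXC9 (8.69 ± 1.36 CPM per kb) and HOXA11 (8.20 ± 1.36 CPM per kb) came next and did not differ beyond their spread. The lowest of the 26 in vector input was HOXB3 at 1.01 ± 0.33 CPM per kb.

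The counts of overlapping rows on opposite strands were far apart, which bears on every value given here. In GENCODE release 44, 22 pairs of a HOX gene and a noncoding row share exonic bases on opposite strands. The noncoding row held more counts in 19 of the 22 pairs, and more per kilobase in 18. HOXA10-AS held 2791 counts against 84 for HOXA9 and 161 for HOXA10, the genes on its opposite strand. HOXB-AS3 held 1735 counts against 117 for HOXB6 and 5 for HOXB5. Pairs in which the HOX gene held more counts included HOXD8 over HOXD-AS2 (270 against 160) and HOXA13 over HOTTIP (23 against 1). HOXC9 was ahead of HOXC-AS2 per kilobase, with 203 against 187 counts per kb. Outside the clusters, the mitochondrial mRNA MT-ND6, the only one encoded on its strand, held 81656 counts against 15650 for MT-CO1 of the other strand. The library kit marks strand. How the counting used strand is not stated in the material analysed here. The RNA behind the counts of a row is therefore uncertain, also for rows without opposite exons. Of the 26 tested rows, 19 share exonic bases with a member on the opposite strand. The 7 others, which share none with a member, are HOTAIR, HOXC11, HOXC-AS1, HOXB-AS2, HOXB-AS4, HOXB7 and HOXB9. HOTAIR shares 69 and 97 exonic bases with opposite-strand genes that are not members. Outside their exons the spans of HOTAIR and HOXC11, and of HOXB-AS4 and HOXB7, still overlap on opposite strands. The span of HOXB-AS2 lies inside that of HOXB3, and the span of HOXC-AS1 inside those of HOXC9 and HOXC6, also on opposite strands.

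**Figure D1:**
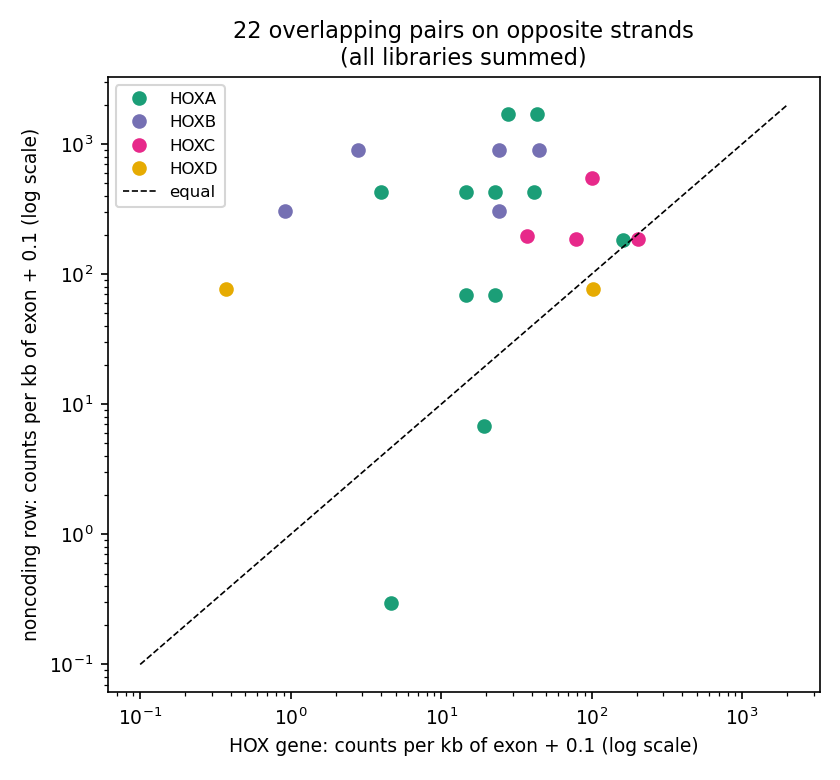
Counts per kb of exon, summed over the 12 libraries with 0.1 added, for the HOX gene (x axis, log scale) and the noncoding row on its opposite strand (y axis, log scale) in 22 overlapping pairs, coloured by cluster. The noncoding row lies above the line of equal values in 18 pairs, and HOXA10-AS, with 1687 counts per kb, is the highest.

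Start sequences are shown for rows that rose in Cap IP in the comparisons that follow (HOXA11, HOXA-AS3, HOXD8, HOXD-AS2) and for antisense rows of HOXB that did not rise, because the cap sits on the first transcribed base. RefSeq promoter sequences of GRCh38.p14 were matched by symbol for 29 of the 55 members, with 37 windows of 300 bases. Each line gives 70 bases before the RefSeq start in lower case and the first 20 transcribed bases in capitals, 5′ to 3′.
HOXA11: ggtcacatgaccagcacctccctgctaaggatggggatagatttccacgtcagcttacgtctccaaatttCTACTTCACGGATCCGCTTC
HOXA-AS3: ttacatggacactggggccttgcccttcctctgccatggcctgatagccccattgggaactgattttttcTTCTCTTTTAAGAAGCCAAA
HOXD8: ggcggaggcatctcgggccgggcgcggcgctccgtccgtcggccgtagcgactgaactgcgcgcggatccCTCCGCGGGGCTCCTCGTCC
HOXD-AS2: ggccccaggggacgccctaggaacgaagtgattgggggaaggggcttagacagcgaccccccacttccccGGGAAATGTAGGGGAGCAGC
HOXB-AS1: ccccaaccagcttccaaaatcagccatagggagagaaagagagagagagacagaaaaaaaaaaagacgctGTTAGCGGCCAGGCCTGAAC
HOXB-AS2: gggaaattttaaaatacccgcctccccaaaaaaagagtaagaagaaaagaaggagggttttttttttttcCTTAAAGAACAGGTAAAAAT
HOXB-AS3: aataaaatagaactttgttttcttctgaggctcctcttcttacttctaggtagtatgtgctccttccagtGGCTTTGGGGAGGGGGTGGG
They lie at chr7:27185213-27185302 (minus strand), chr7:27147093-27147182 (plus), chr2:176129635-176129724 (plus), chr2:176137079-176137168 (minus), chr17:48544281-48544370 (plus), chr17:48556087-48556176 (plus) and chr17:48595888-48595977 (plus), in the order of the lines. Of the 7, HOXA11 and HOXD-AS2 have a RefSeq start that is also the outermost start in GENCODE, and the other starts differ between the annotations.

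The starts differed in base composition and in the first base. The 300-base windows of HOXB-AS1, HOXB-AS2 and HOXB-AS3 held 5, 3 and 6 CpG dinucleotides, while those of HOXA11, HOXD-AS2 and HOXD8 held 13, 10 and 34. HOXA-AS3, which rose in Cap IP, held 2, so a low CpG count was not particular to HOXB rows. Over the 37 windows the median was 15 CpG and 54.3% GC, against 14 CpG and 58.7% GC over 35116 RefSeq windows. The first transcribed base was G in 17 and A in 10 of the 37 windows, where 33.6% of all windows had G and 44.4% had A. Of the 37 windows, 20 were from HOXA, several of them from HOXA3 alone. HOXC4 and HOXC5 share a window, which was counted for both. Windows of HOXB1 and HOXD4, which held no counts, were included. Whether the starts of HOX rows differ from all windows was not tested. The letters TATAAA, searched on both strands, were in 6 windows (16.2%, against 11.5% of all windows), and TGATTNAT, the form bound by pairs of PBX and HOX proteins, in 2 (5.41%, against 2.82%).

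The first comparison asked which HOX RNAs differ in total RNA between eIF4E and vector cells. HOTAIR was the only tested HOX row to pass, and it was lower in eIF4E cells. In input HOTAIR held 11, 2 and 4 counts in the eIF4E libraries, against 34, 18 and 35 in the vector libraries. In CPM these were 4.35, 0.98 and 2.08 in eIF4E input and 22.0, 9.62 and 14.8 in vector input. The libraries did not overlap. HOTAIR, on chromosome 12 at 53962308 to 53974956 of GRCh38, on the minus strand, fell by 2.54 ± 0.56 (SE) on the log2 scale (adjusted p = 0.0419 in edgeR, quasi-likelihood, Benjamini-Hochberg over all genes). This was 1 of 26 tested HOX rows, or 3.85%, where 0.53% of the 12460 genes tested passed. The summed epithelial markers were higher in every eIF4E than in every vector input library, with the widest gap in KRT15. KRT15 held 99 counts in eIF4E input and 6 in vector input, while KRT5 held 24 and 40. The part of these markers in this comparison was not tested. The call depended on single libraries. The edgeR adjusted p of HOTAIR was 0.143 without the first vector input library, 0.142 without the third, 0.235 without the second eIF4E input library and 0.183 without the third. In bulk RNA, fewer cells with HOTAIR and less HOTAIR per cell cannot be told apart.

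In Cap IP HOTAIR was lower in eIF4E cells again, without passing. It held 10, 4 and 13 counts in eIF4E Cap IP, against 66, 18 and 63 in vector Cap IP, and the libraries did not overlap. The log2 difference of eIF4E against vector in Cap IP was -2.19 ± 0.52 (edgeR adjusted p = 0.0817). Vector and eIF4E libraries that share a tag in their titles deviated together in Cap IP (correlations of 0.203, 0.156 and 0.305). With the tag as a block HOTAIR passed, at -2.14 ± 0.37 (edgeR adjusted p = 0.00208), with 1.24% of all genes. That block was fitted over all 12 libraries, input included, where tags did not pair the libraries. Without the second vector Cap IP library HOTAIR passed as well, at -2.49 (edgeR adjusted p = 0.0431). Without any other single Cap IP library it did not pass, with edgeR adjusted p-values from 0.158 to 0.505. With library sizes from total counts or mitochondrial mRNAs it did not pass either (edgeR adjusted p = 0.152 and 0.268). HOXC11, the neighbour whose span overlaps HOTAIR on the other strand and which specifies posterior positions, held 16, 10 and 10 counts in eIF4E Cap IP and 41, 17 and 32 in vector Cap IP. Its libraries did not overlap either, and its log2 difference of -1.11 ± 0.48 did not pass (edgeR adjusted p = 0.480). Without the first vector Cap IP library the value was -0.67. In input HOXC11 held 33, 7 and 9 counts in eIF4E cells and 12, 22 and 27 in vector cells, which overlapped.

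HOXA11-AS varied widely among vector libraries. This row, annotated as an antisense RNA, lies at 27184507 to 27189298 on chromosome 7. It held 29, 23 and 24 counts in eIF4E input and 103, 38 and 20 in vector input. In Cap IP it held 24, 42 and 15 counts in eIF4E cells and 156, 71 and 27 in vector cells. The eIF4E input libraries were close to each other, while the first vector library was high and the third low in both fractions. The log2 difference of eIF4E against vector was -1.402 ± 0.65 in input and -1.58 ± 0.64 in Cap IP, and neither passed (edgeR adjusted p = 0.346 and 0.454). Without the first vector library these values were -0.27 in input and -0.72 in Cap IP. HOXA11 on the opposite strand held 31, 38 and 25 counts in eIF4E input and 37, 45 and 42 in vector input, with a log2 difference of -0.58 ± 0.33 (edgeR adjusted p = 0.446).

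**Figure D2:**
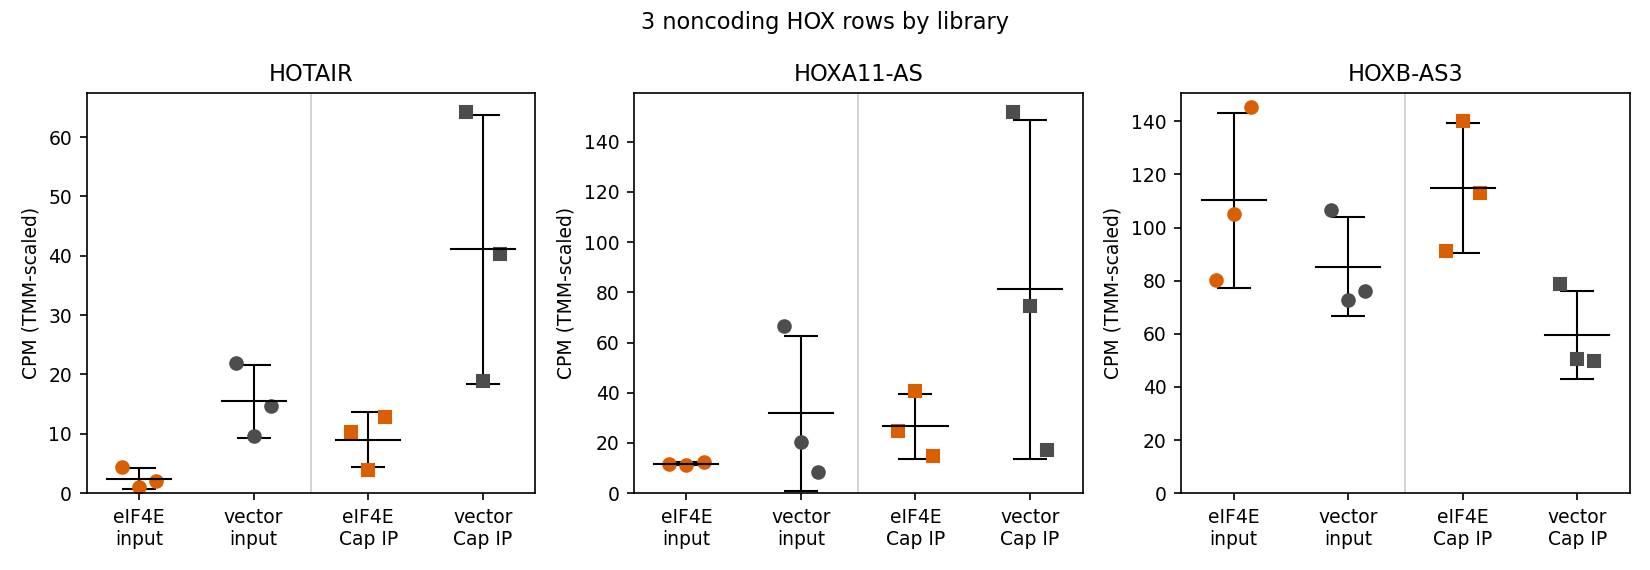
TMM-scaled CPM (y axes) of HOTAIR, HOXA11-AS and HOXB-AS3 in each library of eIF4E and vector cells, for input (circles) and Cap IP (squares), with the mean (line) and SD (bar) of 3 libraries. HOTAIR lies lower in eIF4E than in vector cells in both fractions, HOXA11-AS varies most among vector libraries, and HOXB-AS3 in Cap IP is higher in all eIF4E than in all vector libraries.

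Between eIF4E and vector input the fitted differences lay mostly above 0 in HOXB and mostly below 0 in the other clusters. No HOX row other than HOTAIR passed, and the difference between clusters was not tested. In HOXB, 7 of 8 tested rows had a higher fitted level in eIF4E input, with a median log2 difference of 0.64. A row can enter the test through the cells in which it is high. HOXB6, 1 of the 7, held 10 or more counts in libraries of eIF4E cells alone. In HOXA none of 7 was higher and the median was -0.58. HOXC had 2 of 9 higher with a median of -0.45, and HOXD 0 of 2 with a median of -0.46. Over all genes tested 46.6% were higher and the median was -0.05. With library sizes from mitochondrial mRNAs, the median of all genes was 0.25 and 1 of 7 HOXA, 3 of 9 HOXC and 1 of 2 HOXD rows were above 0, and with total counts 1 HOXA row was; 7 of 8 HOXB rows were higher in either scaling. Of the 26 rows, 6 (23.1%) had eIF4E input libraries that did not overlap the vector input libraries, near the 18.7% of all genes. Of these, HOXB3 and HOXB6 were above, and HOTAIR, HOXA10, HOXC13-AS and HOXC-AS2 below.

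HOXB6 and HOXB3 had the largest positive differences of the HOX rows in input. HOXB6, a trunk HOX gene, held 22, 19 and 19 counts in eIF4E input and 7, 7 and 7 in vector input, a log2 difference of 1.31 ± 0.50 (edgeR adjusted p = 0.245). HOXB3, a hindbrain HOX gene, held 36, 30 and 39 counts in eIF4E input and 15, 9 and 19 in vector input, a log2 difference of 1.12 ± 0.40 (edgeR adjusted p = 0.216). The counts did not overlap, yet neither passed over all genes. HOXB6 entered the test through eIF4E cells, with 7 or fewer counts in every vector library. HOXB6 and HOXB3 share 433 exonic bases on the same strand, and both lie opposite HOXB-AS3.

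Within the HOX counts, HOXB took a larger share in eIF4E cells. The HOXB rows made up 41.5, 45.2 and 46.0% of the HOX counts in the eIF4E input libraries, against 30.5, 29.6 and 29.3% in the vector input libraries. In Cap IP they made up 22.2, 26.9 and 25.3% in eIF4E cells, against 18.6, 14.0 and 15.6% in vector cells. In both fractions every eIF4E library was above every vector library. HOXA went the other way in input, with 30.6, 36.9 and 36.3% in eIF4E cells and 44.6, 46.2 and 43.9% in vector cells. The summed level of HOXB overlapped between the cells. It was 209.9, 267.4 and 367.6 CPM in eIF4E input and 240.5, 195.6 and 196.9 CPM in vector input. In Cap IP it was 258.6, 319.7 and 276.6 CPM in eIF4E and 265.4, 192.3 and 169.2 CPM in vector cells. The HOXA sum in input was 155.0, 218.0 and 289.7 CPM in eIF4E and 351.0, 305.2 and 294.7 CPM in vector cells, without overlap. HOXC and HOXD shares overlapped between eIF4E and vector input. No test was run on these shares, because the clusters were compared with earlier results of these data known. With the 39 HOX genes alone, HOXB made up 39.8, 44.1 and 49.3% in eIF4E input and 31.8, 27.7 and 26.2% in vector input. With the 16 noncoding rows alone, it made up 42.4, 45.7 and 44.7% in eIF4E input and 30.1, 30.3 and 30.4% in vector input.

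**Figure D3:**
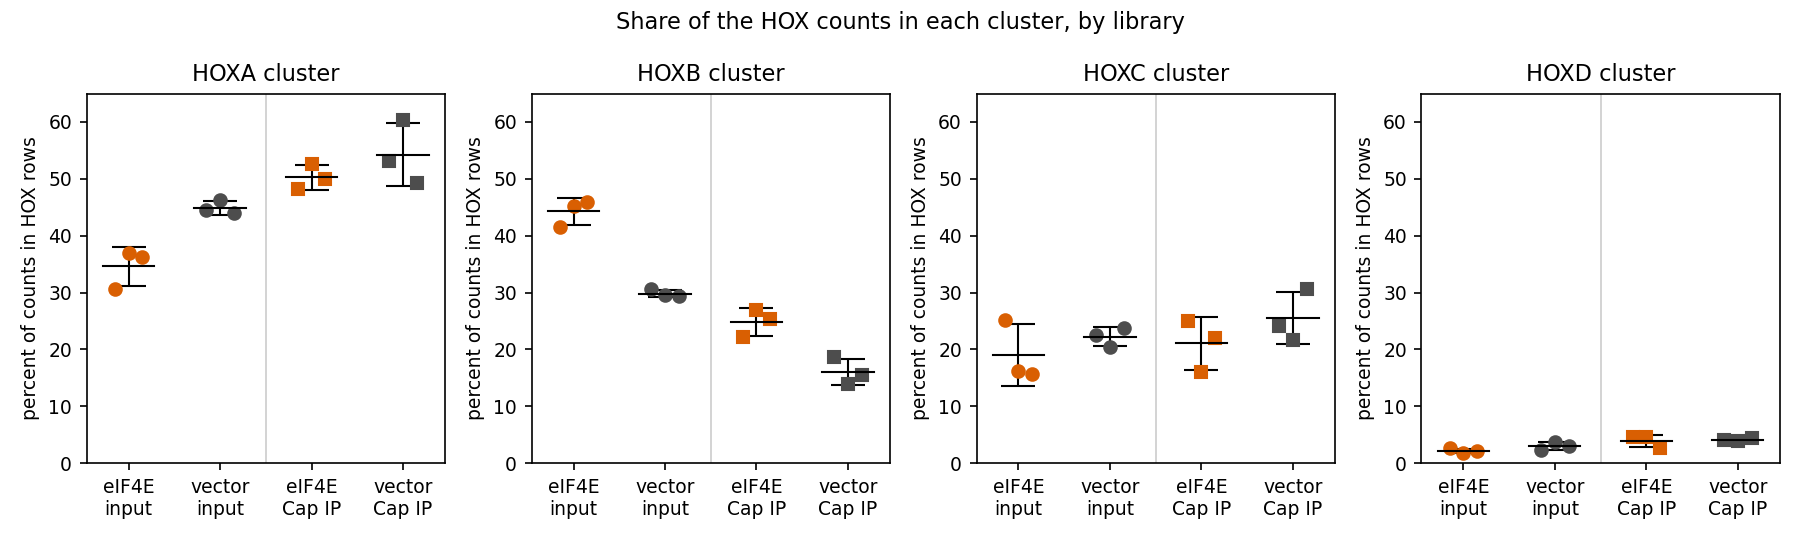
Percent of all counts in HOX rows (y axes) that fell in each cluster, by library, for eIF4E and vector cells in input (circles) and Cap IP (squares), with the mean (line) and SD (bar) of 3 libraries. The HOXB share is higher in every eIF4E library than in every vector library of the same fraction, and lower in Cap IP than in input.

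In Cap IP no HOX row passed between eIF4E and vector cells, where 0.225% of all genes did (28 of 12460). At an unadjusted p under 0.05 in edgeR there were 4 of 26, namely HOTAIR, HOXA11-AS, HOXC11 and HOXB-AS3, where 9.2% of all genes were. DESeq2 called 1, HOTAIR, and 0.602% of all genes. The summed endothelial markers were higher in every eIF4E than in every vector Cap IP library, through PECAM1 alone (89 against 33 counts). CDH5 held 2 counts in eIF4E and 4 in vector Cap IP, and VWF 0 in both. The part of these markers in this comparison was not tested. Libraries of 5 rows (19.2%) did not overlap, against 13.6% of all genes. HOXB-AS3, annotated as an antisense RNA across HOXB3 to HOXB6, was the row with the smallest p among those higher in eIF4E Cap IP. It had 91.3, 140.04 and 113.03 CPM in eIF4E Cap IP and 78.8, 50.5 and 49.8 CPM in vector Cap IP, a log2 difference of 0.95 ± 0.31 (edgeR adjusted p = 0.316). In input its 80.3, 105.1 and 145.4 CPM in eIF4E cells overlapped the 106.7, 72.7 and 76.3 CPM in vector cells. The medians of the clusters in Cap IP were -0.26 for HOXA, 0.12 for HOXB, -0.39 for HOXC and -0.26 for HOXD, with -0.01 over all genes.

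**Figure D4:**
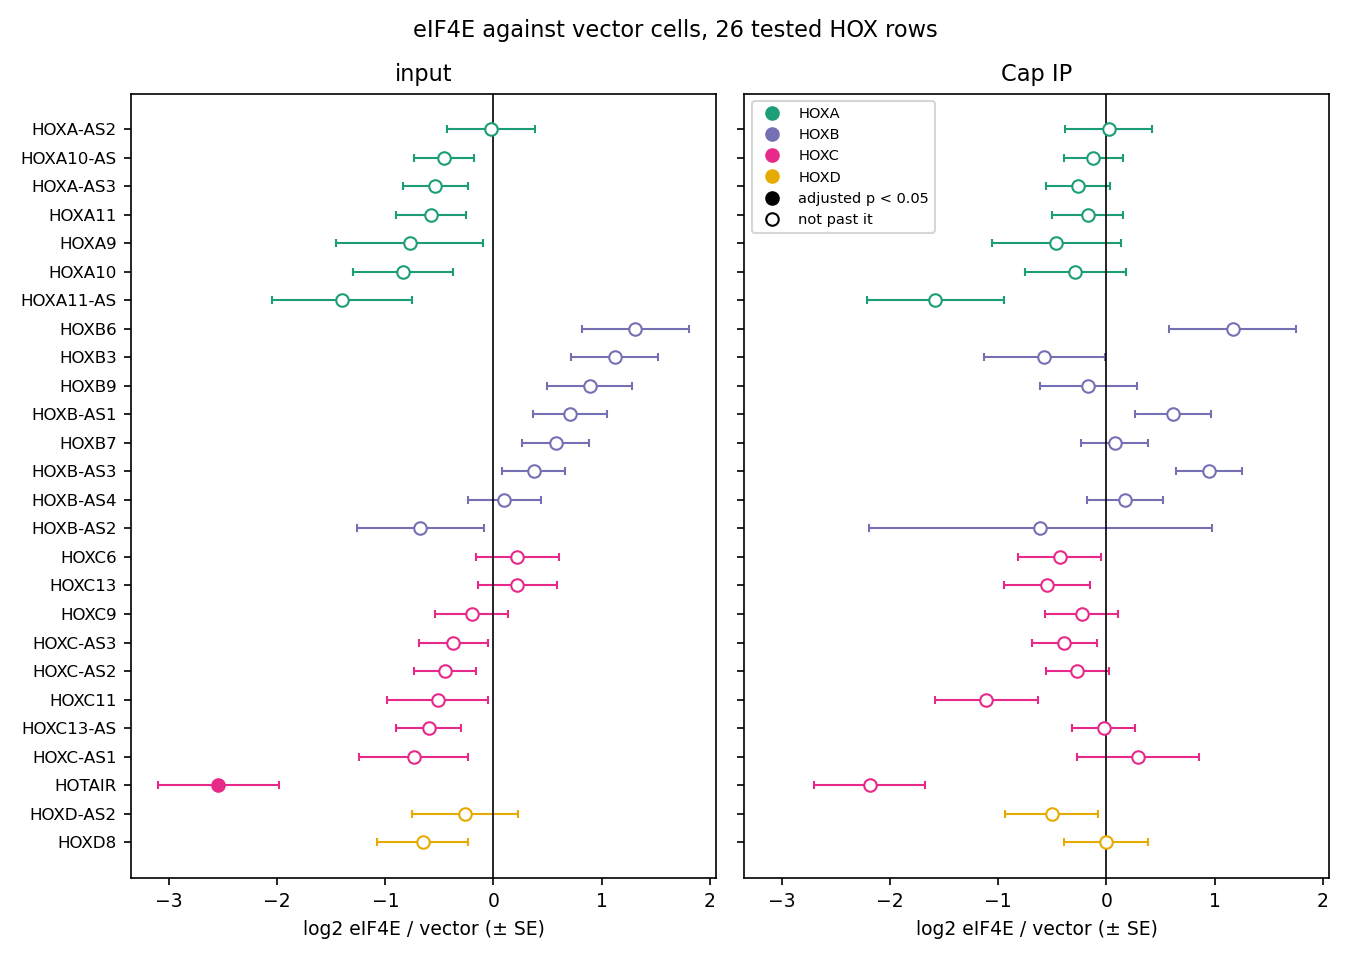
Log2 difference of eIF4E against vector cells (x axes, ± SE from edgeR) for the 26 tested HOX rows, ordered by cluster and by the input value, in input and in Cap IP. Filled points have an edgeR adjusted p under 0.05, which HOTAIR in input alone reached; 7 of 8 HOXB rows lie above 0 in input and none of the 7 HOXA rows does (1 does when library sizes come from total counts or from mitochondrial mRNAs).

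The second comparison asked which HOX RNAs are enriched by the Cap IP relative to input. Rows that passed as higher in Cap IP came mostly from HOXA, HOXC and HOXD, with 12 of their 18 tested rows in eIF4E cells and 11 in vector cells. Of the 8 HOXB rows, 0 passed as higher in eIF4E cells and 1 in vector cells. In eIF4E cells 14 of 26 rows (53.9%) passed, where 45.1% of all genes did. Of these, 12 (46.2%) were higher in Cap IP, against 21.9% of all genes, and 2 (7.69%) lower, against 23.3%. In vector cells 13 of 26 passed, where 39.5% of all genes did. Of these, 12 (46.2%) were higher, against 18.5% of all genes, and 1 (3.85%) lower, against 21.0%. The median log2 Cap IP over input of the tested HOX rows was 0.89 in eIF4E cells and 1.00 in vector cells, with medians of -0.13 and -0.04 over all genes. A row can enter the test through the fraction in which it is high. HOXB-AS2 did so through input, and HOXD-AS2 and HOXA9 did so mostly through Cap IP. HOXD-AS2 held 7 to 35 counts in Cap IP libraries and 5 to 12 in input libraries. HOXA9 held 5 to 11 counts in Cap IP libraries and 2 to 10 in input libraries. The numbers of rows passing therefore describe the rows with enough counts and not the 55.

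All values of Cap IP over input are relative to the scaling. With total counts as library sizes the median of all genes moved to -0.97 in eIF4E cells and -0.76 in vector cells. The medians of the HOX rows were then 0.07 and 0.26, so they lay above all genes by about the same distance. Fewer HOX rows passed, while more of all genes did, mostly as lower. In eIF4E cells 8 of 26 HOX rows passed, against 55.6% of all genes. Of these, 4 were higher, against 8.99% of all genes, and 4 lower, against 46.6%. In vector cells 5 passed, against 45.9% of all genes. Of these, 3 were higher, against 6.21%, and 2 lower, against 39.7%. The HOXC median in eIF4E cells was then -0.0038, and 2 of 7 HOXA rows in vector cells were below 0. Scaled to the mitochondrial mRNAs, all genes had medians of 0.03 in eIF4E and 0.97 in vector cells. Then 2 rows passed in eIF4E cells, HOXD8 higher and HOXB-AS2 lower, and 16 in vector cells, where 12.5% and 27.7% of all genes did. These mRNAs did not move alike. In eIF4E cells MT-CO1 lay between 984 and 1795 CPM in input and between 125 and 191 CPM in Cap IP. MT-ND6 lay there between 1807 and 5246 CPM in input and between 4367 and 6631 CPM in Cap IP. In vector cells MT-CO1 fell from at least 894 to at most 142 CPM, and the MT-ND6 ranges overlapped.

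In HOXA all 7 tested rows had positive values in both kinds of cells, with medians of 1.19 in eIF4E and 1.07 in vector cells. HOXA10-AS, antisense to HOXA9 and HOXA10, had 249, 289 and 222 CPM in eIF4E Cap IP, against 54.2, 74.3 and 100.7 CPM in eIF4E input. In vector cells it had 289.7, 326 and 213 CPM in Cap IP, against 113.1, 103.2 and 97.8 CPM in input. The fractions did not overlap in either kind of cell. This was common: of 12460 genes, 3159 had every Cap IP library above every input library in eIF4E cells, and 2831 in vector cells. Another 3674 and 3387 had every Cap IP library below. Of the 26 HOX rows, 14 and 15 were above, and 3 and 1 below. On the log2 scale HOXA10-AS rose by 1.73 ± 0.28 in eIF4E and by 1.398 ± 0.28 in vector cells (edgeR adjusted p = 7.50e-05 and 6.33e-04). HOXA-AS3, which lies opposite exons of HOXA3, HOXA4, HOXA6 and HOXA7, rose by 1.35 ± 0.30 and 1.07 ± 0.30 in eIF4E and vector cells (edgeR adjusted p = 0.001398 and 0.00796). HOXA9, a posterior HOX gene also known from leukaemia, rose in both as well, by 1.86 ± 0.67 and 1.55 ± 0.61 (edgeR adjusted p = 0.0291 and 0.0487). Its counts were low, 6, 10 and 5 in eIF4E Cap IP against 3, 7 and 2 in eIF4E input, and leaving out single libraries ended its call in 4 of 6 cases in eIF4E cells and in 5 of 6 in vector cells. HOXA11 and HOXA-AS2 passed in eIF4E cells alone, at 1.08 ± 0.33 and 1.07 ± 0.41 (edgeR adjusted p = 0.0125 and 0.0373). Leaving out single libraries ended the call of HOXA-AS2 in 4 of 6 cases and of HOXA11 in 1, with edgeR adjusted p-values up to 0.153 and 0.0520. Their values in vector cells were 0.67 ± 0.32 and 1.02 ± 0.41 (edgeR adjusted p = 0.102 and 0.0506). In vector cells, Cap IP and input libraries with the same title stem deviated together, and with the stem as a block HOXA-AS2 and HOXA11-AS passed there too, at 0.97 and 1.38 (edgeR adjusted p = 0.0149 and 1.03e-04), with 48.8% of all genes.

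Most HOXC rows and both tested HOXD rows had positive values as well. HOXC medians were 0.83 in eIF4E and 1.09 in vector cells, and 5 and 6 of 9 rows passed, all higher. HOXD medians were 1.93 and 1.72 over 2 rows, of which HOXD-AS2 entered the test mostly through Cap IP. Whether the clusters differ in size of enrichment was not tested. HOXC-AS3, opposite HOXC10, had 62.6, 45.4 and 45.6 CPM in eIF4E Cap IP, against 15.4, 13.2 and 17.6 CPM in eIF4E input. In vector cells it had 51.5, 74.6 and 74.7 CPM in Cap IP, against 25.9, 14.4 and 19.8 CPM in input. The fractions were apart in both kinds of cells, and the row rose by 1.73 ± 0.31 and 1.75 ± 0.31 (edgeR adjusted p = 2.09e-04 and 2.27e-04). HOXC13-AS, opposite the hair and nail gene HOXC13, rose by 1.67 ± 0.30 in eIF4E and 1.09 ± 0.30 in vector cells (edgeR adjusted p = 2.06e-04 and 0.00645). HOTAIR rose by 1.78 ± 0.63 and 1.42 ± 0.46 (edgeR adjusted p = 0.0259 and 0.0184), although its libraries overlapped between the fractions in both kinds of cells. Its call was lost without any of 4 of the 6 libraries in eIF4E cells and without any of 3 of 6 in vector cells, with edgeR adjusted p-values up to 0.136. HOXC9 rose in both, by 0.94 ± 0.34 and 0.97 ± 0.34 (edgeR adjusted p = 0.0302 and 0.0268). HOXC-AS2 passed in eIF4E cells alone, at 0.83 ± 0.29, and HOXC6 and HOXC11 in vector cells alone, at 1.37 ± 0.38 and 1.31 ± 0.45 (edgeR adjusted p = 0.0278, 0.00821 and 0.0264). In the other kind of cell their values had the same sign, 0.65 ± 0.29 for HOXC-AS2 in vector cells, and 0.71 ± 0.39 for HOXC6 and 0.72 ± 0.50 for HOXC11 in eIF4E cells. The differences between the kinds of cells, eIF4E minus vector, were 0.18 ± 0.41, -0.65 ± 0.54 and -0.59 ± 0.67, and none passed (edgeR adjusted p = 0.960, 0.882 and 0.911). Most of these calls were borderline: leaving out single libraries ended the call of HOXC9 in 4 of 6 cases in either kind of cell, of HOXC-AS2 in 5 of 6 and of HOXC11 in 3 of 6, with edgeR adjusted p-values up to 0.139, 0.0927 and 0.169. HOXA10-AS, HOXA-AS3, HOXC-AS3, HOXC13-AS and HOXD8 kept their calls in all 6 cases in both kinds of cells.

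HOXD was represented by a HOX gene and its opposite strand. HOXD8, on chromosome 2 at 176129694 to 176132695, had 38.99, 26.1 and 15.9 CPM in eIF4E Cap IP, against 5.93, 3.91 and 8.83 CPM in eIF4E input. In vector cells it had 32.1, 31.5 and 18.5 CPM in Cap IP, against 8.40, 10.7 and 10.1 CPM in input. It rose by 2.11 ± 0.41 and 1.46 ± 0.40 (edgeR adjusted p = 4.15e-04 and 0.00654), and its fractions did not overlap. HOXD-AS2 on the opposite strand rose by 1.75 ± 0.47 and 1.99 ± 0.45 (edgeR adjusted p = 0.00535 and 0.00177). In eIF4E cells the edgeR adjusted p of HOXD-AS2 was 0.0719 without the second Cap IP library. The other 8 HOXD rows held 66 counts or fewer each.

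HOXB had the lowest median of the 4 clusters in Cap IP over input. The median of its 8 tested rows was -0.08 in eIF4E and 0.00 in vector cells, close to the medians of all genes, and 1 row passed as higher, HOXB7 in vector cells. With total counts as library sizes the HOXB medians were -0.91 and -0.74 and those of all genes -0.97 and -0.76, and with mitochondrial mRNAs 0.24 and 1.05 against 0.03 and 0.97. HOXB7 had 41.04, 41.5 and 40.7 CPM in eIF4E Cap IP, against 19.0, 27.9 and 36.9 CPM in eIF4E input. In vector cells it had 47.6, 33.6 and 35.8 CPM in Cap IP, against 20.04, 15.5 and 20.2 CPM in input. The change in vector cells was 1.06 ± 0.31 (edgeR adjusted p = 0.0111), and in eIF4E cells the value was 0.56 ± 0.31 (edgeR adjusted p = 0.141). The abundant HOXB-AS3 and HOXB-AS4 had values of 0.06 ± 0.29 and 0.15 ± 0.34 in eIF4E cells and -0.52 ± 0.30 and 0.07 ± 0.34 in vector cells. None of the 4 passed (edgeR adjusted p = 0.883, 0.750, 0.185 and 0.886).

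HOXB-AS2 and HOXB3 were lower in Cap IP. HOXB-AS2, a row with no opposite exons that lies inside the span of HOXB3, held 1, 0 and 0 counts in eIF4E Cap IP, against 9, 7 and 14 in eIF4E input. In vector cells it held 0, 0 and 2 counts in Cap IP, against 11, 8 and 26 in input. The ratio of summed counts, scaled to library size, was -3.80 on the log2 scale in eIF4E cells (95% counting interval -9.15 to -1.21) and -3.78 in vector cells (-6.87 to -1.85). HOXB-AS2 passed in both (edgeR adjusted p = 0.0127 and 0.00401), and leaving out the second or the third eIF4E Cap IP library raised the edgeR adjusted p in eIF4E cells to 0.0552 and 0.0505. HOXB3 held 4, 3 and 4 counts in eIF4E Cap IP, against 36, 30 and 39 in eIF4E input, and fell by 2.14 ± 0.48 (edgeR adjusted p = 0.00144). In vector cells HOXB3 held 4, 4 and 12 counts in Cap IP, against 15, 9 and 19 in input, a value of -0.44 ± 0.47 (edgeR adjusted p = 0.473).

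The summed counts of HOXB had the lowest Cap IP over input of the 4 clusters when each Cap IP library was set against the input library of its title stem, while the order of the other clusters varied. The labels do not say what a stem marks, and libraries of 1 stem deviated together in vector cells but not in all eIF4E pairs (correlations of 0.35, 0.11 and 0.08), so the eIF4E ratios are not known to come from matched libraries. The HOXA sum was 3.63, 2.87 and 1.88 times as high in Cap IP as in input in the 3 eIF4E pairs of libraries, and 2.16, 2.72 and 1.82 times in the 3 vector pairs. For HOXC these ratios were 2.29, 2.00 and 1.93 in eIF4E and 1.94, 2.21 and 2.10 in vector pairs. For HOXD they were 4.09, 5.27 and 1.73 in eIF4E and 3.17, 2.22 and 2.35 in vector pairs. HOXB ratios were 1.23, 1.20 and 0.753 in eIF4E and 1.10, 0.983 and 0.859 in vector pairs. In each of the 6 pairs the HOXB ratio was the lowest. Sums follow the most abundant rows, and HOXB-AS3 alone held 37.9% of the HOXB counts.

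**Figure D5:**
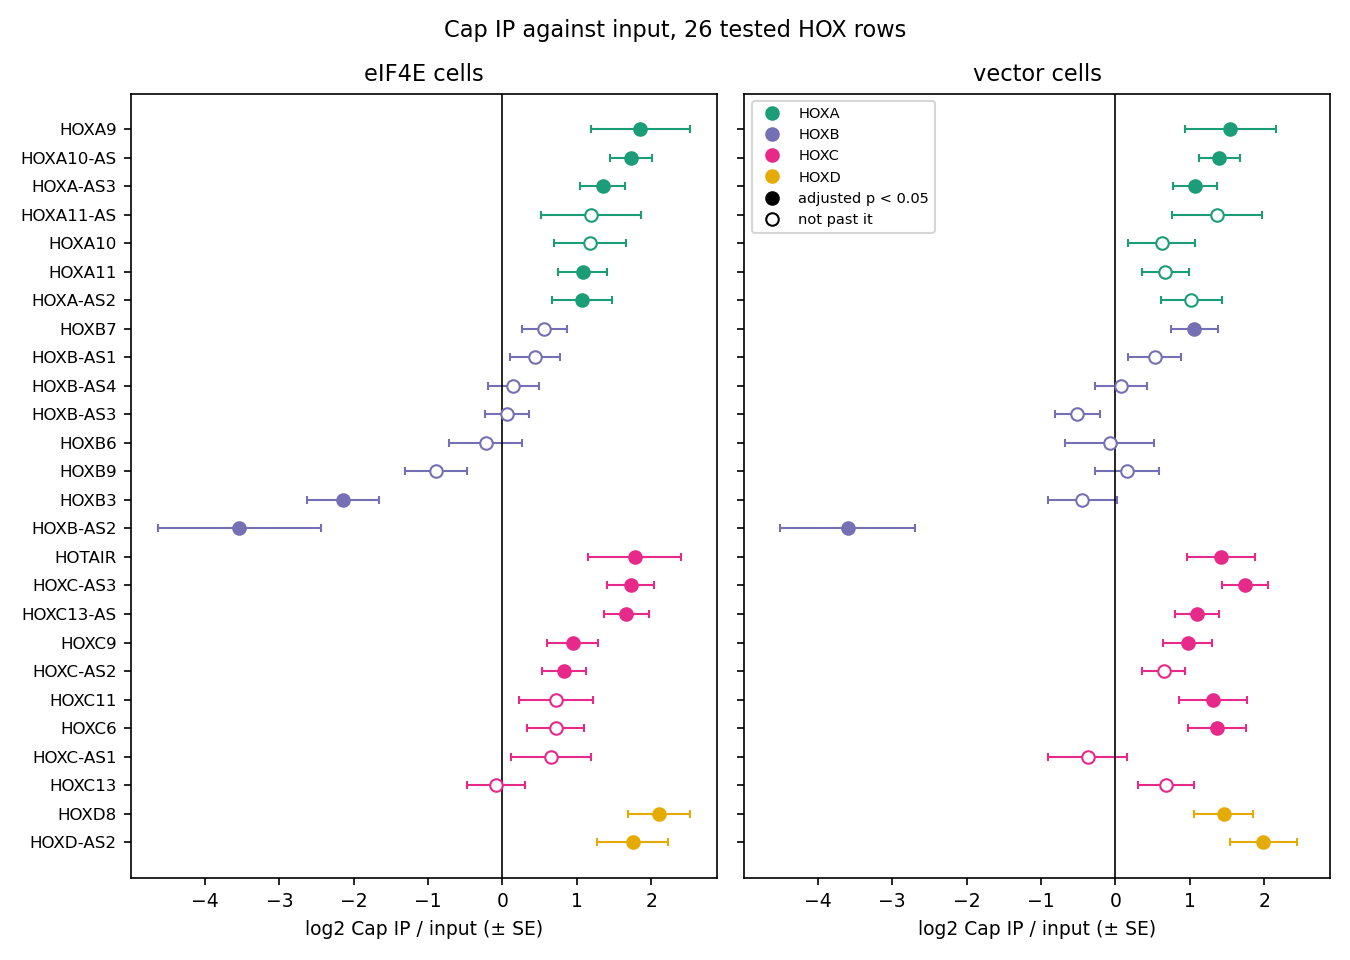
Log2 Cap IP over input (x axes, ± SE from edgeR) for the 26 tested HOX rows in eIF4E and vector cells, ordered by cluster and by the value in eIF4E cells. Filled points have an edgeR adjusted p under 0.05. With this scaling the rows of HOXA and HOXD all lie above 0 (with total counts 2 HOXA rows in vector cells do not), and the HOXB rows lie on both sides of it, down to HOXB-AS2.

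The third comparison, the question of the series title, asked whether Cap IP over input differs between eIF4E and vector cells. No HOX row passed, and 0.0% of all genes did in edgeR, with 728 of 12460 (5.84%) at an unadjusted p under 0.05. DESeq2 called no HOX row and no other gene. With the title stem as a block, 51 genes (0.409%) passed, all higher, with 1443 (11.6%) at an unadjusted p under 0.05. No HOX row was among the 51, and 2 of the 26 were at an unadjusted p under 0.05. In the edgeR fit without a block, HOXB3 was the only HOX row at an unadjusted p under 0.05. Its difference was -1.69 ± 0.69 on the log2 scale (edgeR adjusted p = 0.833). That HOXB3 passed in eIF4E cells and not in vector cells is thus not shown to be a difference between them. The cluster medians of this difference were 0.31 for HOXA, -0.12 for HOXB, -0.02 for HOXC and 0.20 for HOXD, against 0.02 over all genes. For HOTAIR the difference was 0.35 ± 0.73 (edgeR adjusted p = 0.954), and did not pass. This comparison shares all its libraries with those above, and its standard errors were larger: 0.39 to 2.69 for the 26 rows. The 2.69 was that of HOXB-AS2, whose difference was 0.06, and the next largest was 0.92, for HOXA11-AS. For Cap IP over input the errors of HOXB-AS2 were 1.09 in eIF4E and 0.91 in vector cells, so its 2.69 is not a reliable measure of spread.

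Genes that work with HOX proteins or control them did not pass between eIF4E and vector cells. This held for the 9 tested of 11 HOX cofactors, 26 of 30 Polycomb genes, 23 of 24 Trithorax and COMPASS genes, 9 of 16 genes of retinoic acid signalling, which switches HOX genes on in the embryo, and 5 of 6 reported HOTAIR partners. The counts at an unadjusted p under 0.05 for input in edgeR were 1, 4, 3, 2 and 0, where 13.5% of all genes were. For Cap IP these counts were 0, 1, 2, 3 and 0, where 9.2% of all genes were. EZH2, the catalytic subunit of PRC2 and a reported HOTAIR partner, had a log2 difference of -0.51 ± 0.51 in input (edgeR adjusted p = 0.691).

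Between Cap IP and input, 21.9% of all genes passed as higher and 23.3% as lower in eIF4E cells, and 18.5% and 21.0% in vector cells, which is the background for the counts of regulators. Of the 23 tested Trithorax and COMPASS genes, which encode activators of HOX genes, 14 were lower and 1 higher in eIF4E Cap IP, and 13 lower and 1 higher in vector Cap IP. Their medians were -1.23 in both, against -0.13 and -0.04 over all genes. KMT2D, an H3K4 methyltransferase with a very long mRNA, fell by 4.42 ± 0.34 in eIF4E and by 3.74 ± 0.33 in vector cells (edgeR adjusted p = 3.82e-08 and 2.90e-07). Of the 9 tested retinoic acid genes, 0 were higher and 3 lower in eIF4E Cap IP, and 1 higher and 1 lower in vector Cap IP. Of the 26 Polycomb genes, 5 were higher and 6 lower in eIF4E Cap IP, and 4 higher and 6 lower in vector Cap IP. BMI1, a subunit of PRC1, rose by 1.85 ± 0.51 in vector cells (edgeR adjusted p = 0.00737), and CBX6 of the same complex fell by 2.37 ± 0.31 in eIF4E cells and by 1.64 ± 0.30 in vector cells (edgeR adjusted p = 1.07e-05 and 3.12e-04). Of the 5 HOTAIR partners 1 passed in either kind of cell: EED, a core subunit of PRC2, rose by 1.03 ± 0.39 and 1.26 ± 0.39 (edgeR adjusted p = 0.0352 and 0.0157). Among the 9 cofactors, which bind DNA together with HOX proteins, 2 were higher and 1 lower in eIF4E Cap IP, and 1 was higher in vector Cap IP. Of these, MEIS2 rose by 1.82 ± 0.53 (edgeR adjusted p = 0.00924) and PBX2 fell by 1.00 ± 0.38 (edgeR adjusted p = 0.0369) in eIF4E cells.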

How the data were processed

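Counts per gene of 12 libraries were analysed as deposited, with no normalization by the authors. The submitters' processing notes name STAR 2.5.1b, featureCounts 1.4.5-p1 and the build GRCh38.p5. Per the labels, libraries were made with the stranded KAPA RNA HyperPrep kit with RiboErase and read for 75 cycles from one end. The annotation and the strand setting of the counting are not stated there.

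In R 4.3.3, genes kept by filterByExpr with a minimum count of 10 (12460) went into edgeR 4.0.16 with TMM scaling (quasi-likelihood, 4 group means, 12 libraries). A gene passed at a Benjamini-Hochberg adjusted p under 0.05 over all genes. Alternatives were DESeq2 1.42.0, other scalings and filters, replicate blocks and left-out libraries. The fit was tested on simulated data. Positions, exon lengths and opposite exons came from GENCODE release 44, in which all 55 members matched, and start sequences from RefSeq.

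The members, gene lists and comparisons were chosen with earlier results of these data known. Rows named are those that passed, HOTAIR, HOTAIRM1, HOTTIP, the 3 with most counts per cluster, and their opposite rows. Others, such as the named regulators, were chosen after their values were seen.

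Residuals from group means of libraries sharing a title stem correlated at 0.429, 0.271 and 0.440 in vector cells, and of Cap IP libraries sharing a title tag at 0.203, 0.156 and 0.305. Blocked values are given there where they change a call. No pair of replicates was a copy of another (chi-square per degree of freedom 5.10 to 18.0). Some items are not reported here.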

Additional observations from a re-analysis of the deposited data

How the results depend on the processing

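HOTAIR was the only HOX row to pass between eIF4E and vector input, and the number passing was 0 with a filter of 50 counts in 3 libraries, with library sizes from total counts, with those from mitochondrial mRNAs and with only the groups compared, 2 with no filter, and 0 to 1 without single libraries. In Cap IP, where none passed, it was 1 with the DESeq2 test, 1 with the title tag as a replicate block, 2 with no filter and 0 to 1 without single libraries. The second row that passed without a filter was HOXA11-AS in both cases. The log2 difference of HOTAIR ranged over its alternatives from -3.26 to -2.17 in input, and from -2.62 to -1.73 in Cap IP. With the tag as a replicate block in input, where tags did not pair the libraries (0.18, 0.01 and -0.04), 1 passed.

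For Cap IP against input in eIF4E cells, 14 rows passed. The number was 4 with the filter of 50 counts, 8 with total counts, 2 with mitochondrial mRNAs and 9 to 14 without single libraries. The block for the stem, which did not pair eIF4E libraries by the rule used (0.35, 0.11 and 0.08), gave 17. In vector cells 13 passed, with 5 under the filter of 50 counts, 5 with total counts, 9 to 13 without single libraries and 15 with the stem as a replicate block. The stricter filter tests fewer rows. HOXC-AS2 in eIF4E cells turned to -0.0038 with total counts, against 0.83, with the median of all genes then at -0.97. The difference of Cap IP over input between the cells gave 0 HOX rows under each alternative.

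The HOXB share of HOX counts in eIF4E minus vector libraries was 14.4 percentage points in input and 8.75 in Cap IP, and 5.46 in Cap IP with HOX genes alone. Without single libraries it was 13.6 to 15.8 in input and 7.71 to 10.07 in Cap IP, where it was 7.64 without the most abundant row of each cluster. For Cap IP minus input it was -19.5 in eIF4E cells, with -15.9 without the most abundant row of each cluster and -15.1 with HOX genes alone. In vector cells it was -13.8, with -9.40 without those rows, -4.68 with HOX genes alone and -16.6 with noncoding rows alone. These settings were chosen after seeing the data, and the cause of the moves was not tested. The tested rows held 78 to 2791 counts over 12 libraries, and 29 of the 55 rows held too few to be tested.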

Other observations

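Of 60 homeobox genes outside the HOX clusters 20 had enough counts to be tested. In eIF4E Cap IP 0 passed as higher and 4 as lower, where 21.9% and 23.3% of all genes did. In vector Cap IP 0 passed as higher and 3 as lower, where 18.5% and 21.0% of all genes did. At an unadjusted p under 0.05 in edgeR there were 4 in eIF4E and 7 in vector cells. Whether they differ from the HOX rows was not tested. CUX1, which encodes a homeodomain factor, was lower in Cap IP, with log2 values of -1.36 ± 0.35 in eIF4E and -1.29 ± 0.35 in vector cells (edgeR adjusted p = 0.00389 and 0.00680). The medians of the 20 were -0.17 in eIF4E and -0.05 in vector cells, against -0.13 and -0.04 over all genes.

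Genes that lie beside the HOX clusters were tested for 19 of 35. Of them 2 passed as higher and 3 as lower in eIF4E Cap IP, where 21.9% and 23.3% of all genes did. In vector Cap IP 4 passed as higher and 2 as lower, where 18.5% and 21.0% of all genes did. CBX3, a heterochromatin protein gene beside HOXA, rose by 1.81 ± 0.26 and 1.19 ± 0.25 (edgeR adjusted p = 2.32e-05 and 0.00109). NFE2L1, a stress response factor gene beside HOXB, was lower, at -1.70 ± 0.28 and -1.31 ± 0.29 (edgeR adjusted p = 8.94e-05 and 0.00131). Their medians were 0.21 and 0.10.

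Inside the 4 clusters the table holds 14 further rows, of which 9 had no counts. They held 87 counts in all, and the 8 miRNA rows among them held 2. The genes named here outside the clusters were chosen after their values were seen.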
